A study of Mus musculus with 24 samples.

Results

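The brush border of the small intestine carries a set of membrane-bound peptidases, and 9 of their genes were followed here across 24 mice: the aminopeptidases *Anpep*, *Enpep* and *Xpnpep2*, the peptidases *Dpp4*, *Ace* and *Naaladl1*, and the metalloendopeptidases *Mme*, *Mep1a* and *Mep1b*. Rows were taken from the deposited tables by gene symbol. Each symbol had a single row, so that the set holds 9 of the 56691 genes listed and of the 34471 genes with a count in at least 1 library. Each of the 9 passed the filter on low counts in every comparison. RNA came from the distal jejunum of mice on the C57BL/6 background, 3 in each of 8 groups, with 1 library per mouse. Males and females were wild type or carried the germline *Ptk6* knockout (*Ptk6-/-*), which removes this intracellular tyrosine kinase of epithelial linings from all cells. Control mice drank regular water, and the other mice drank 100 mM succinate for 7 days. The groups were therefore male wild type control, male wild type succinate, male *Ptk6-/-* control, male *Ptk6-/-* succinate and the same 4 in females. All were young adults from different litters of 1 breeding colony. Succinate in drinking water activates tuft cells, and the design asks whether this response, and gene expression at rest, depend on *Ptk6* and on sex.

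Total counts per library lay between 8080321 and 52824743, with a median of 43017686.5. Counts of *Ptk6* ranged from 284 to 2405 over the 12 wild type libraries and from 7 to 61 over the 12 knockout libraries. Levels of single genes are given as CPM, counts scaled to library size with TMM factors, and levels of different genes are compared in FPKM, which corrects for length. Libraries of 3 mice stood apart from the rest. In replicate 1 of the male wild type controls, *Rn18s-rs5* (18S ribosomal RNA) took 51.2% of all counts. In replicate 1 of the male *Ptk6-/-* succinate group it took 29.7%, total counts were the lowest of all, and 6 markers of the distal small intestine summed to 9864 CPM against 386 to 4280 CPM in the other 23 libraries. Replicate 2 of the female wild type succinate group held 8 heart muscle markers at a summed 21750 CPM, against 13.5 to 226 CPM elsewhere. The 18 enterocyte markers summed to 20510 to 58290 CPM in the 24 libraries, and none of them was at 0 in any library. Markers of kidney proximal tubule, another epithelium rich in these peptidases, summed to at most 1.59 CPM.

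Digestion of protein outside the cell ends at this membrane. Pancreatic enzymes leave short peptides, and the peptidases of the microvilli cut them to amino acids, dipeptides and tripeptides that enterocytes then take up. Aminopeptidases remove residues from the N-terminus, dipeptidyl peptidases and peptidyl dipeptidases remove pairs of residues, and endopeptidases cut within the chain. Several of these enzymes also end or start the action of peptide hormones: ACE makes angiotensin II, ENPEP trims it to angiotensin III, DPP4 inactivates the incretins GLP-1 and GIP, and neprilysin, the product of *Mme*, degrades many small signalling peptides. Their genes mark mature enterocytes of the villus. In RNA of whole tissue, fewer enterocytes and less RNA per enterocyte cannot be told apart.

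The members lie on 8 chromosomes of GRCm39, *Enpep* and *Mme* both on chromosome 3, and do not neighbour one another. By the deposited positions, *Anpep* (ENSMUSG00000039062) spans chr7:79471551-79510807, minus strand, *Enpep* (ENSMUSG00000028024) chr3:129062824-129126369, minus strand, and *Xpnpep2* (ENSMUSG00000037005) chrX:47197602-47225858, plus strand. *Dpp4* (ENSMUSG00000035000) spans chr2:62160417-62242575, minus strand, *Ace* (ENSMUSG00000020681) chr11:105858771-105880790, plus strand, and *Naaladl1* (ENSMUSG00000054999) chr19:6155812-6165822, plus strand. *Mme* (ENSMUSG00000027820) spans chr3:63148958-63289044, plus strand, *Mep1a* (ENSMUSG00000023914) chr17:43785215-43813703, minus strand, and *Mep1b* (ENSMUSG00000024313) chr18:21194980-21219279, plus strand. Of the 9, *Anpep*, *Dpp4*, *Enpep*, *Ace* and *Mep1b* each overlap a predicted gene, of which *Gm44974*, on the strand of *Anpep*, had the highest median level at 1.66 CPM.

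*Anpep*, which encodes aminopeptidase N, was the most abundant member, with a median of 1482 FPKM over the 24 libraries (range 202 to 2201). *Naaladl1*, a relative of glutamate carboxypeptidase II, came next at 772 FPKM, followed by *Mep1b*, the meprin beta subunit, at 291 FPKM. These ranks were the same in each of the 24 libraries. *Mep1a* (meprin alpha, 138 FPKM), *Enpep* (aminopeptidase A, 129 FPKM) and *Ace* (angiotensin-converting enzyme, 103 FPKM) formed the middle, where neighbours changed places: *Mep1a* exceeded *Enpep* in 14 of 24 libraries, and *Enpep* exceeded *Ace* in 15. *Dpp4* (65.3 FPKM) stood below *Ace* in all 24, and it exceeded *Xpnpep2* (membrane aminopeptidase P, 60.1 FPKM) in 14. *Mme* was lowest in every library, with a median of 9.33 FPKM. Among the 34471 genes with a count, ranked by median FPKM in the 6 wild type controls, *Anpep* was number 43, *Naaladl1* number 54, *Mep1b* number 120 and *Mme* number 3440. The 9 genes together took 0.251% to 2.32% of all counts of a library.

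Since levels of the members varied together from mouse to mouse, as described below, their promoters were read for the core letters of 4 factor families that act in enterocytes. RefSeq's promoter table for GRCm38.p6, an older build than that of the counts, matched 7 of the 9 genes with 10 start sites, each with 300 bases of sequence of which the last 50 follow the start. Searched on both strands were CAAAGTCCA for HNF4, GTTAAT for HNF1, CATAAA for CDX and AGATAA for GATA, none of which overlapped another in the members. Only 2 matches were found, 1 in *Dpp4* and 1 in *Mep1a*. AGATAA stood in the *Dpp4* promoter with its first base 32 bases before the start, and 11.2% of all 32851 promoters hold these letters. CATAAA stood on the opposite strand of the *Mep1a* promoter from base 14 after the start, and 11.9% of all promoters hold it. CAAAGTCCA (0.475% of all promoters) and GTTAAT (7.1%) were not in the windows of the members. The *Dpp4* (chr2:62412182-62412481, minus strand) and *Mep1a* (chr17:43502724-43503023, minus strand) promoters are shown for these matches, which are in capitals, and that of *Enpep* (chr3:129332700-129332999, minus strand) is shown because this gene ranged most widely between mice, 25.4-fold in CPM.
Dpp4: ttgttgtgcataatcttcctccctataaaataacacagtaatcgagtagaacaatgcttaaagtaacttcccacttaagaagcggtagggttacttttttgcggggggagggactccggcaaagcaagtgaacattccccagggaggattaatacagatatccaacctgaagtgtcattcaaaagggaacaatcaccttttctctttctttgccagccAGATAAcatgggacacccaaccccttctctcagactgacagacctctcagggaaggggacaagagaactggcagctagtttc
Mep1a: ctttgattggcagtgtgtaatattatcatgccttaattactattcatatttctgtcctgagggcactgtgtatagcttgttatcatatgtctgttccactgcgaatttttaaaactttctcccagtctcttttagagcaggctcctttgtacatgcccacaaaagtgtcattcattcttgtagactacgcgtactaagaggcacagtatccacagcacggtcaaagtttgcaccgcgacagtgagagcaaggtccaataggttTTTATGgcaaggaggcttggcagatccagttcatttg
Enpep: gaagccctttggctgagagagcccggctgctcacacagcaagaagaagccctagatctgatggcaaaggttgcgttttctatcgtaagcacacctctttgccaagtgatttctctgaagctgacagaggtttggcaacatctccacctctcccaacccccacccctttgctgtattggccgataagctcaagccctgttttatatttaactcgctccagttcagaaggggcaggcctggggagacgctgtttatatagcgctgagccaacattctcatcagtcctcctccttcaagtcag

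Averaged over sex and genotype, all 9 members had a negative log2 fold change on succinate, from -1.14 ± 0.39 (SE) for *Enpep* to -0.32 ± 0.19 for *Ace*, with 12 mice on each side. No member was called, at an adjusted p under 0.05 and a fold change of at least 2 by edgeR's quasi-likelihood test. Over all genes this rule called 0.525% of 21694 genes, 111 higher and 3 lower. The median of the 9 members was -0.85 and that of all genes 0.01, and 49.4% of all genes had a negative value. An unadjusted p under 0.05 was found for 8 of 9 members, all but *Ace*, and for 3462 of all 21694 genes. *Xpnpep2* had the lowest adjusted p, 0.0935 (log2 fold change -1.04 ± 0.28), and *Ace* the highest, 0.398. DESeq2 called 2 members (*Enpep* and *Xpnpep2*) among 283 genes and voom with sample quality weights 2 (*Enpep* and *Mep1a*) among 515, while limma on FPKM called none. Without the 3 libraries that stood apart, the median of the members was -0.73 and again none was called. Without female wild type succinate replicate 3, edgeR called *Xpnpep2* among 237 genes.

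**Figure D1:**
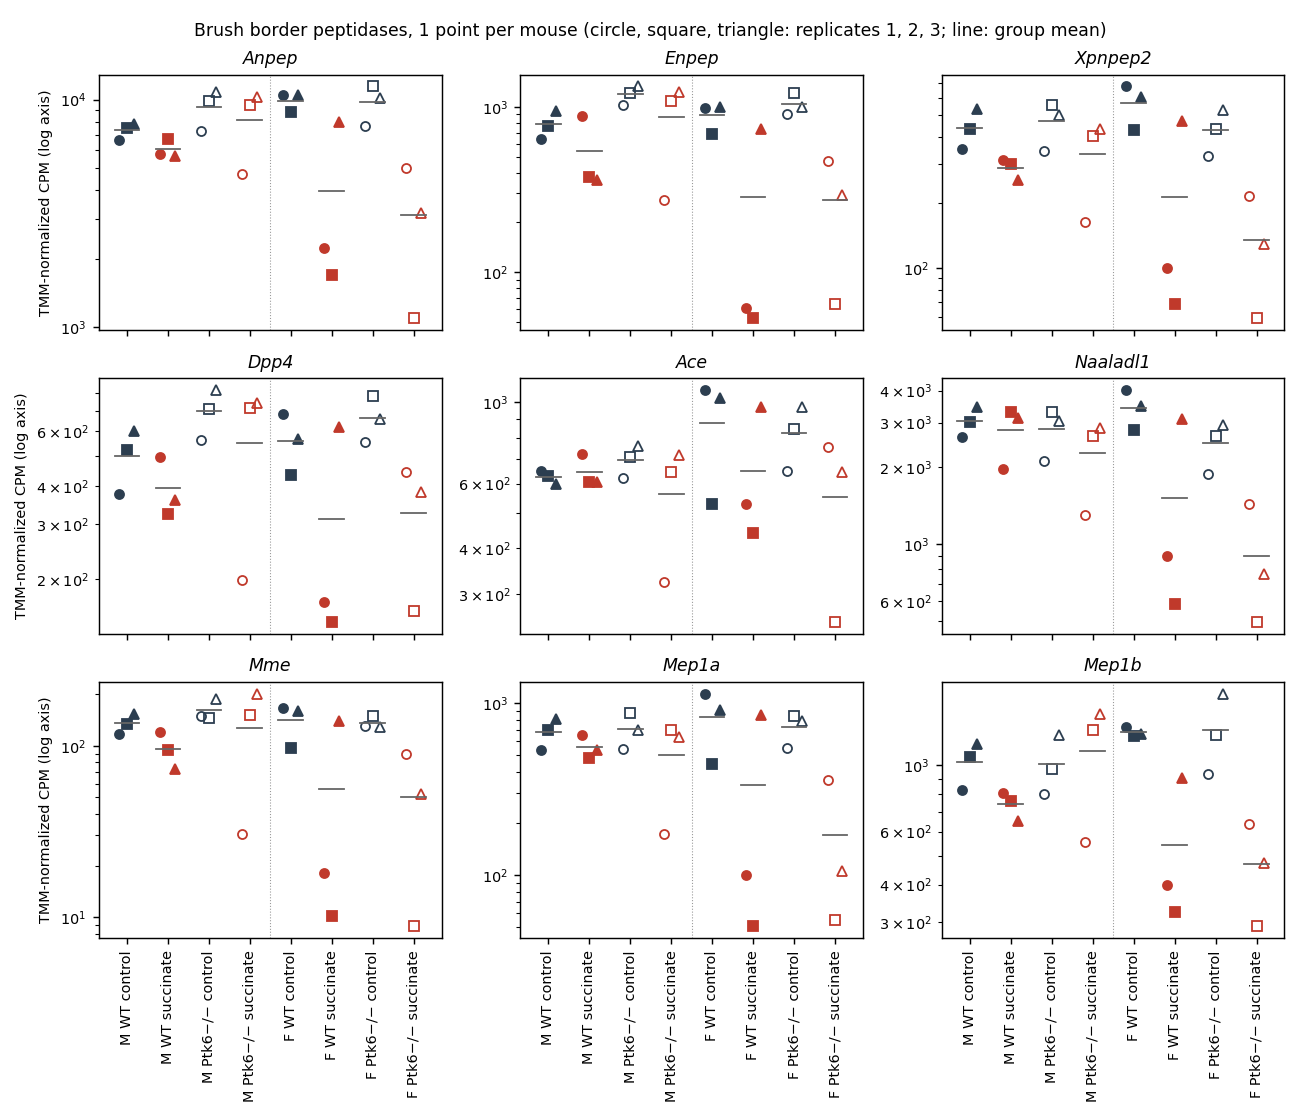
TMM-normalized CPM (log axis) of each of the 9 peptidases in 24 mice, by group, with 1 point per mouse and a line at the group mean; M and F are males and females, WT wild type, and filled and open symbols wild type and Ptk6-/-. In females on succinate, replicates 1 and 2 of the wild type group and replicates 2 and 3 of the Ptk6-/- group lie lowest for most genes, while replicate 3 of the wild type group lies among its controls, or below them for Anpep and Mep1b.

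Female mice on succinate differed widely among themselves. *Enpep*, which removes acidic residues, had 982, 689.8 and 1003 CPM in the female wild type controls and 61, 52.5 and 737 CPM on succinate, where replicate 3 lay within the control range and replicates 1 and 2 far below it. In the female *Ptk6-/-* mice it had 912, 1218 and 994 CPM in controls and 469, 63.8 and 293 CPM on succinate, so that these groups did not overlap. The log2 fold change was -1.63 ± 0.97 (SE, adjusted p = 0.713) in wild type and -1.95 ± 0.65 (adjusted p = 0.41) in *Ptk6-/-* females by edgeR.
*Anpep*, the aminopeptidase of broadest specificity here, had 10433, 8819.7 and 10438 CPM in female wild type controls and 2226, 1699 and 7973 CPM on succinate. All 3 succinate mice lay below all 3 controls, though replicate 3 did so by less than the controls differ among themselves. The *Ptk6-/-* females had 7649.7, 11466 and 10174 CPM as controls and 5029, 1095 and 3176 CPM on succinate, again without overlap (log2 fold change -1.68 ± 0.60, adjusted p = 0.424, edgeR).
*Xpnpep2*, whose product cuts before proline, had 680.2, 428 and 604 CPM in female wild type controls and 100.3, 69 and 469.6 CPM on succinate. Replicate 3 on succinate lay between the controls. The values were 325, 434 and 527 CPM in *Ptk6-/-* controls and 215, 59.1 and 129 CPM in *Ptk6-/-* mice on succinate, without overlap (log2 fold change -1.70 ± 0.48, adjusted p = 0.367, edgeR).

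*Dpp4* and *Ace*, which release pairs of residues, and *Naaladl1* were less alike. *Dpp4* had 681, 435 and 566 CPM in female wild type controls and 168, 145 and 622 CPM on succinate, with replicate 3 among the controls. It had 554, 780.5 and 657 CPM in *Ptk6-/-* controls and 444, 157 and 381 CPM in *Ptk6-/-* females on succinate, which did not overlap (log2 fold change -1.04 ± 0.43 (SE), adjusted p = 0.453, edgeR). *Ace* had the estimate nearest to 0 in both genotypes. Its level was 1079.9, 529 and 1027 CPM in female wild type controls and 529, 441 and 972 CPM on succinate, and 651, 845 and 973 CPM in *Ptk6-/-* controls and 755, 251 and 644 CPM on succinate. Both pairs of groups overlapped, and the log2 fold changes were -0.42 ± 0.44 and -0.61 ± 0.45 (adjusted p = 0.839 and 0.652, edgeR). *Naaladl1* had 4022, 2795 and 3466 CPM in female wild type controls and 903, 582 and 3084 CPM on succinate, where replicate 3 again lay between the controls. In *Ptk6-/-* females it had 1891, 2662 and 2945 CPM as controls and 1445, 496 and 764 CPM on succinate, without overlap (log2 fold change -1.50 ± 0.48, adjusted p = 0.402, edgeR).

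Among the endopeptidases, *Mep1a* had 1131, 445 and 916 CPM in female wild type controls and 101, 50.7 and 857 CPM on succinate. Control replicate 2 and succinate replicate 3 crossed, so that the groups overlapped. *Ptk6-/-* females had 545, 841 and 786 CPM as controls and 355, 54.9 and 106 CPM on succinate, without overlap and with the most negative estimate of any member in a comparison of 2 groups (log2 fold change -2.11 ± 0.66 (SE), adjusted p = 0.398, edgeR). *Mep1b*, its partner subunit, had 1337, 1251 and 1265 CPM in female wild type controls and 399.8, 326 and 902 CPM on succinate. These groups did not overlap. Neither did those of the *Ptk6-/-* females, with 934, 1253 and 1723 CPM as controls and 639, 291 and 472 CPM on succinate (log2 fold change -1.51 ± 0.42, adjusted p = 0.357, edgeR). *Mme*, the scarcest member, had 167, 97.4 and 160.2 CPM in female wild type controls and 18.2, 10.1 and 140.4 CPM on succinate, and 131, 149 and 129.7 CPM in *Ptk6-/-* controls and 89.9, 8.86 and 52 CPM on succinate. Its wild type groups overlapped and its *Ptk6-/-* groups did not.

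Counted over the set, 8 of 9 members, all but *Ace*, were lower in every *Ptk6-/-* female on succinate than in every *Ptk6-/-* female control, and 10.1% of the 19334 genes tested had the same arrangement. In wild type females 2 of 9, *Anpep* and *Mep1b*, were arranged in this way, against 7.31% of 18872 genes. The medians of the 9 log2 fold changes were -1.28 in wild type and -1.51 in *Ptk6-/-* females. edgeR called 0 members in either comparison, and before adjustment p was under 0.05 for 1 member (*Mep1b*) and for 7. The share of all genes called was 0% in wild type females, where 1466 genes had an unadjusted p under 0.05, and 0.0879% in knockout females, where 2060 of 19334 had one. In knockout females, leaving out single libraries moved the 17 genes called by edgeR to between 0 and 29. The median of the members there moved between -2.17 and -1.26. DESeq2 called 4 members in *Ptk6-/-* females (*Mep1a*, *Mep1b*, *Naaladl1* and *Xpnpep2*) among 433 genes, and none in wild type females. The wild type result rested on 1 mouse. Without replicate 3 of the succinate group, edgeR called 8 of 9 members, with a median of -2.29, among 597 genes of all those tested, and without replicate 1 or 2 it called none, with medians of -0.89 and -0.81. The fit without replicate 3 leaves 2 mice against 3, and 1 of these 2 is replicate 2, the library with the heart muscle markers. Replicate 3 itself held 6 lung markers at a summed 17.6 CPM, against 2.54 to 4.15 CPM in the other 5 wild type females and 7.7 to 19.5 CPM in the 6 *Ptk6-/-* females. The part of either in the result was not tested. Succinate by genotype was tested directly in females, and no member passed (log2 differences between -0.79 and -0.13, median -0.27; 0% of 20531 genes called, 0 members and 1327 genes at an unadjusted p under 0.05). The direction was not steady, since the median was 0.82 once wild type succinate replicate 3 was dropped, -0.83 once *Ptk6-/-* succinate replicate 1 was, and 0.73 by voom.

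In wild type males on succinate the estimates were between -0.61 and 0.03. *Enpep* had 637, 772 and 943 CPM in male wild type controls and 886, 377 and 359 CPM on succinate, where replicates 2 and 3 lay below all controls and replicate 1 between them. *Anpep* had 6652, 7502 and 7818 CPM in these controls and 5785, 6726 and 5630.5 CPM on succinate. *Xpnpep2* (351, 432 and 533 CPM in controls, 313, 299 and 254 CPM on succinate) and *Mep1b* (824, 1059.5 and 1176 CPM and 809, 759 and 653 CPM) were the 2 members whose wild type male groups did not overlap, in the lower direction, an arrangement shared by 4.15% of 19183 genes. The log2 fold change of *Xpnpep2* was -0.61 ± 0.23 (SE, unadjusted p = 0.0277, adjusted p = 0.947, edgeR). The median over the 9 members was -0.35, with *Ace* at 0.03 ± 0.22, and it turned to 0.03 on log2(FPKM + 1) and 0.04 on log2(FPKM + 0.1), where the median of all genes was 0.25 and 0.37. Without succinate replicate 1 it was -0.57. No member was called by edgeR or DESeq2, with 1 member at an unadjusted p under 0.05 and 0% of genes called (781 at an unadjusted p under 0.05). Voom called *Enpep* among 1498 genes, and edgeR without succinate replicate 1 called it among 1077.
In male *Ptk6-/-* mice the 9 estimates lay between -0.48 and 0.15, with a median of -0.33. Replicate 1 had the lowest level of the succinate group for each of the 9 members, and this is the library with the lowest total count and the high distal markers. *Enpep*, for example, had 1033, 1218 and 1335 CPM in *Ptk6-/-* controls and 274, 1086 and 1234 CPM on succinate, and *Mme* had 149, 146 and 189 CPM and 30.4, 151 and 201 CPM. Replicates 2 and 3 on succinate lay within or near the control range for both genes. Without replicate 1 the median over the members was -0.05, without replicate 3 it was -0.57, and with all 3 it was -1.06 on log2(FPKM + 1) and -1.23 on log2(FPKM + 0.1), where the median of all genes was -0.45 and -0.77. No member and 0% of 18966 genes were called by edgeR, with 0 members and 1470 genes at an unadjusted p under 0.05, and DESeq2 and voom called no member either. Neither did any pass the test of succinate by genotype in males (log2 differences between -0.32 and 0.63, median 0.09; 0% of 20340 genes called, 0 members and 772 genes at an unadjusted p under 0.05). Its sign turned too, to -0.24 without *Ptk6-/-* succinate replicate 3 and to -1.21 on log2(FPKM + 0.1), and it was 0.37 without *Ptk6-/-* succinate replicate 1.

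**Figure D2:**
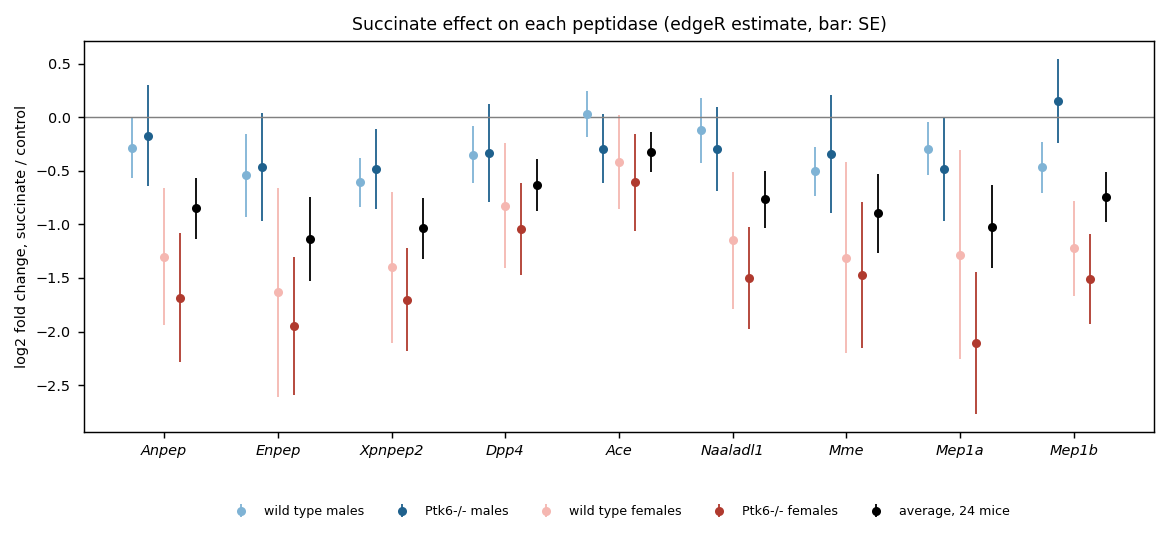
Log2 fold change on succinate (succinate over control, edgeR estimate, bars SE) of each peptidase in the 4 combinations of sex and genotype, 3 mice against 3, and averaged over 24 mice. Estimates in females lie between -0.42 and -2.11 and those in males between -0.61 and 0.15.

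Whether the succinate effect differs between the sexes was asked after these values were seen, in a model of sex by treatment with genotype as a term. All 9 members had negative interaction terms, females minus males, with a median of -1.09 on the log2 scale. The most negative were *Enpep* (-1.28 ± 0.73 (SE), adjusted p = 0.701), *Mep1a* (-1.26 ± 0.72) and *Anpep* (-1.24 ± 0.50, adjusted p = 0.499), and the smallest p belonged to *Mep1b* (-1.21 ± 0.39, unadjusted p = 0.00501, adjusted p = 0.32). edgeR called 0 members and 0% of 21694 genes, with 3 members (*Anpep*, *Mep1b* and *Naaladl1*) and 1783 genes at an unadjusted p under 0.05. DESeq2 and voom called no member. A difference between the sexes thus did not pass the test, though the tools differed over all genes, with 157 called by DESeq2 and 118 by voom. Without female wild type succinate replicate 3 edgeR called 98 genes, and the median of the members was -1.61. Within 12 females, with genotype as a term, the median of the members was -1.37, *Mep1b* came nearest to the threshold by edgeR (-1.35 ± 0.30, adjusted p = 0.0624), and 0 members but 0.857% of 20531 genes were called, and 8 members and 2521 genes had an unadjusted p under 0.05. DESeq2 called 5 members there among 589 genes, and voom 7 among 561. Without wild type succinate replicate 3 edgeR called 7 members among 657 genes. Within 12 males the median was -0.33, with 0 members and 0% of 20340 genes called by edgeR, 1 member (*Xpnpep2*) and 1774 genes at an unadjusted p under 0.05, and no member called by DESeq2 or voom. The median was -0.16 once *Ptk6-/-* succinate replicate 1 was dropped, and 185 genes but no member were called once wild type succinate replicate 1 was.

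No member was called between genotypes at rest. In control males *Enpep* had 637, 772 and 943 CPM in wild type and 1033, 1218 and 1335 CPM in *Ptk6-/-* mice, and it was the 1 member whose groups did not overlap, with the knockouts higher. Of 19218 genes, 16.5% were arranged in this way. Its log2 fold change was 0.60 ± 0.19 (SE, unadjusted p = 0.0121, adjusted p = 0.0964, edgeR). *Dpp4* followed with 375, 523 and 602 CPM against 563, 711 and 817 CPM and a log2 fold change of 0.47 ± 0.20 (adjusted p = 0.195, edgeR), and the groups overlapped at a single mouse on each side. The other 7 lay between -0.12 and 0.33, and the median of all 9 was 0.13. Replicate 1 of the wild type controls, the library with 51.2% of counts in *Rn18s-rs5*, was below every other male control for 5 of the members, *Enpep* and *Dpp4* among them, and without it the median was 0.18. Dropping other single libraries gave medians of 0.07 (*Ptk6-/-* replicate 3) to 0.26 (*Ptk6-/-* replicate 1), and log2(FPKM + 0.1) gave 0.58. edgeR called 0 members and 0.739% of genes, with 2 members and 4837 of 19218 genes at an unadjusted p under 0.05, and DESeq2 and voom called no member at 2-fold. Leaving out single libraries moved the genes called by edgeR, 142 with all libraries, to between 2 and 211. Without the 2-fold limit, *Enpep* had an adjusted p under 0.05 by DESeq2, and *Anpep*, *Dpp4* and *Enpep* had one by voom. *Ptk6* itself was at -5.04 ± 0.29. Among the uptake genes *Slc36a1*, a proton-coupled amino acid transporter, was called there at 1.28 ± 0.21. Among the goblet cell markers *Muc2*, the main mucin, was called at 1.31 ± 0.26, but most of that list went the other way. Of its 7 genes, 2 were positive and 5 negative in control males, with a median of -0.44. In control females the members lay between -0.42 (*Naaladl1*) and 0.28 (*Dpp4*), with a median of -0.01, 0 members and 2115 genes at an unadjusted p under 0.05 and 0.0158% of 19035 genes called. That share rested on single libraries and on the tool, since 1808 genes but no member were called without *Ptk6-/-* replicate 3 and 1972 genes but no member by voom. The median had no steady sign, at -0.21 without wild type replicate 2 and 0.11 without wild type replicate 1. No member was called between genotypes on succinate in males (median 0.42) or in females (median -0.23). Neither median was steady: dropping single libraries moved the male one between 0.01, when *Ptk6-/-* replicate 3 was dropped, and 0.68, when *Ptk6-/-* replicate 1 was, and on log2(FPKM + 0.1) it was -0.54. The female one moved between -0.89, when *Ptk6-/-* replicate 1 was dropped, and 0.67, when wild type replicate 3 was, so that its sign turned. There edgeR called 0% of 18904 and of 19180 genes, 0 members and 514 and 867 genes had an unadjusted p under 0.05, and voom called *Enpep* in the males among 1799 genes. Sex by genotype in controls called 0 members and 0% of 20428 genes, with 0 members and 947 genes at an unadjusted p under 0.05.

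Averaged over all mice, the genotype effect on the members lay between -0.40 for *Naaladl1* and 0.39 for *Enpep*, with a median of 0.12. No member and 2776 of 21694 genes had an unadjusted p under 0.05. The median turned to -0.03 once male *Ptk6-/-* succinate replicate 3 was dropped and to -0.02 with a gene length offset, and it reached 0.22 once female *Ptk6-/-* succinate replicate 2 was dropped. The rule called 0.0184% of all genes and no member. That share was not steady, since edgeR called 4 genes with all libraries and 1 to 27 once single libraries were left out. Voom with sample quality weights called 1193 genes. Females minus males, averaged over genotype and treatment, gave negative values for 8 of 9 members (median -0.37, or -0.60 without female wild type succinate replicate 3 and -0.26 without female *Ptk6-/-* succinate replicate 2), with *Ace* alone positive at 0.17 ± 0.18 (SE). *Enpep* was at -0.65 ± 0.39 and *Naaladl1*, the 1 member with an unadjusted p under 0.05, at -0.55 ± 0.26 (adjusted p = 0.335, edgeR). This average includes the females on succinate. It called no member and 0.134% of genes, 3173 of 21694 had an unadjusted p under 0.05, and neither DESeq2 nor voom called a member for genotype or for sex. For sex, edgeR called 29 genes with all libraries and 89 without female wild type succinate replicate 3. DESeq2 called 221, and edgeR on genes with at least 10 counts in every library called 4.

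Levels of the members varied together from mouse to mouse. Over 24 mice, Pearson's r of log2 CPM was positive for all 36 pairs, from 0.69 (*Ace* and *Naaladl1*) to 0.97 (*Mep1a* and *Xpnpep2*), with a median of 0.91, and Spearman's rho ranged from 0.48 to 0.95. By permutation, with p adjusted over the 36 pairs, the adjusted p of r lay between 1.33e-05 and 0.00054 and that of rho between 2.12e-05 and 0.0182. The smallest unadjusted value that the permutations can give is 1e-05. Mice were shuffled across all 8 groups, so these p also reflect shifts that the members share between groups. Leaving out the 2 mice farthest from the median of the first gene of each pair gave 0.53 to 0.96. Residuals from the 8 group means gave r of 0.79 to 0.97, as description without a p. The points of a pair share their library, its depth and its share of epithelium. Within treatments the pattern was looser in controls. The 12 controls gave r from 0.15 to 0.95 with a median of 0.57, and the 12 succinate mice 0.67 to 0.98 with a median of 0.92. *Dpp4* with *Enpep* (0.95 in controls) and *Naaladl1* with *Xpnpep2* (0.93) were the closest pairs at rest, while *Mme* with *Mep1b* (0.15) and *Enpep* with *Naaladl1* (0.15) were the loosest. The 8 pairs that hold *Ace* had a median r of 0.73 on succinate, against 0.94 for the other 28. These within-treatment values are descriptions, and the difference between treatments was not tested.

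**Figure D3:**
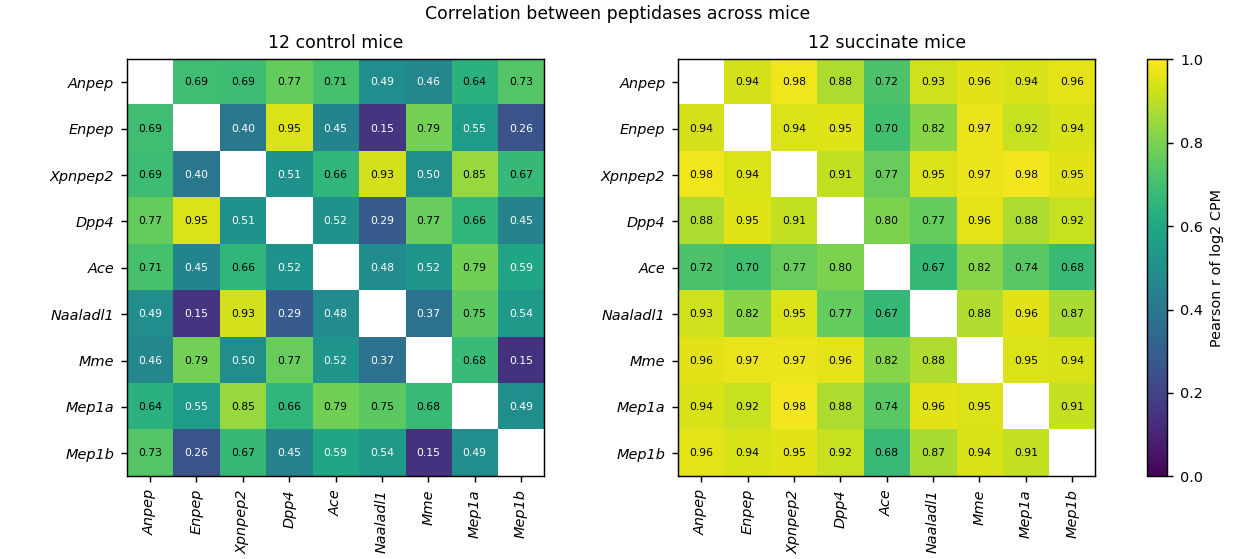
Pearson's r of log2 CPM for each pair of peptidases, printed in each cell, across 12 control mice (left) and 12 succinate mice (right). Values in controls run from 0.15 to 0.95 and values on succinate from 0.67 to 0.98, with the lowest values on succinate in the row of Ace.

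Of 11847 other genes with at least 10 counts in every library, the 5 whose pattern over the 24 libraries was most like the mean of the members' standardized log2 CPM were *Cyp4v3* (r = 0.98), *Aoc1* (0.98), *2010106E10Rik* (0.97), *Cndp1* (0.97) and *Abcg5* (0.97). *Aoc1* encodes diamine oxidase, *Cndp1* a carnosine dipeptidase and *Abcg5* a subunit of a sterol exporter of the same membrane. In the 12 controls alone their r was 0.75, 0.74, 0.75, 0.68 and 0.87. Each member had other genes closer to it than its best partner in the set: 1 gene for *Anpep*, *Enpep*, *Mme*, *Mep1a* and *Xpnpep2*, 2 for *Naaladl1*, 3 for *Mep1b*, 18 for *Dpp4* and 79 for *Ace*, whose best partner was *Dpp4* (r = 0.78).

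Genes that act next to the members in protein digestion were described by lists, whose counts stand beside 3462 of 21694 genes with an unadjusted p under 0.05 for the average succinate effect. Of 11 tested genes for peptide and amino acid uptake, 10 had a negative average succinate effect (median -0.61) and none was called, with 8 at an unadjusted p under 0.05. *Slc15a1*, the transporter of dipeptides and tripeptides, was at -0.53 ± 0.27 (SE), and *Slc6a19*, the main carrier of neutral amino acids, at -0.61 ± 0.24. *Cltrn*, a partner of the *Slc6a19* product in the kidney, was too low to test, at 0 to 0.389 CPM. The 13 tested intracellular peptidases, which finish the work inside the cell, had a median of -0.29, with 10 negative, 4 at an unadjusted p under 0.05 and none called. Other cell surface peptidases had a median of -0.16 over 11 genes, 9 of them negative, 2 at an unadjusted p under 0.05 and none called. In wild type females the intracellular peptidases summed to 4613 to 4941 CPM in controls and 1412 to 3032 CPM on succinate, without overlap. In *Ptk6-/-* females their sums were 2775 to 3909 and 1554 to 2491 CPM, also without overlap. Sums of the uptake genes and of the other cell surface peptidases overlapped in both female genotypes. The 5 tested genes of the renin-angiotensin system, to which *Ace* and *Enpep* belong, had a median of -0.10. The 10 peptide hormones of the gut, substrates of this class of enzyme among them, had a median of 0.35 with 7 positive. No gene was called in either of these 2 lists, with 0 and 2 at an unadjusted p under 0.05.

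Lists of markers of the enterocyte itself had medians nearer to 0 than that of the members, though single genes did not all do so. The 18 enterocyte markers had a median average effect of -0.36, with 14 negative, 8 at an unadjusted p under 0.05 and none called. *Vil1* (villin, the actin bundler of microvilli) was at -0.64 ± 0.20 (SE). Among 12 enterocyte transcription factors the median was -0.27 with 11 negative, 3 at an unadjusted p under 0.05 and none called. *Hnf4a* and *Hnf4g*, nuclear receptors of the enterocyte, were at -0.48 ± 0.18 and -0.68 ± 0.26. The 8 pan-epithelial markers had a median of -0.13. These medians are over lists of different genes, and the difference between them was not tested. In wild type females, enterocyte markers summed to 46170 to 52300 CPM in controls and 29870 to 40410 CPM on succinate, without overlap. Pan-epithelial sums there were 17350 to 19130 and 8956 to 14410 CPM, also without overlap. Both sums overlapped in *Ptk6-/-* females. The transcription factor sums overlapped in wild type females but not in *Ptk6-/-* females (2158 to 2954 and 1350 to 1979 CPM).

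**Figure D4:**
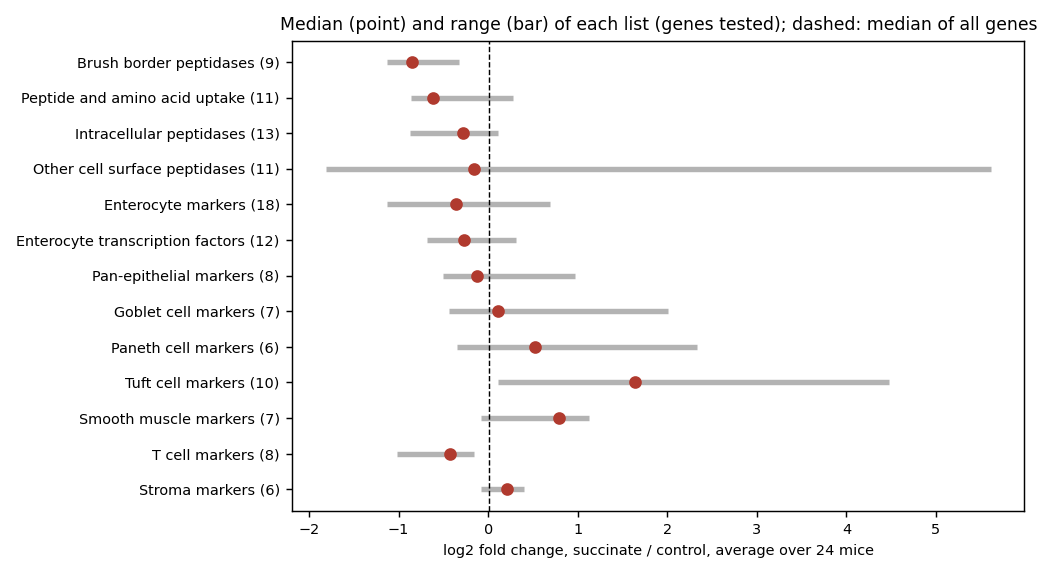
Median (point) and range (bar) of the average log2 fold change on succinate for the peptidases and 12 other lists, with the number of genes tested in parentheses and a dashed line at the median of all genes. The peptidases have the lowest median of the lists drawn, -0.85, and tuft cell markers the highest, 1.64.

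Markers of other cell types were summed in the same mice. Of those given here, with genotypes pooled, the tuft cell list alone separated all females on succinate from all female controls. Within each female genotype, the stroma and distal intestine lists also separated succinate mice from controls. All 10 tuft cell markers had positive average succinate effects (median 1.64), and 5 were called by edgeR: *Trpm5*, *Il25*, *Avil*, *Sucnr1* and *Dclk1*. *Il25*, the cytokine of tuft cells, was at 4.47 ± 0.84 (SE, adjusted p = 0.00915, edgeR) and *Trpm5*, their cation channel, at 1.58 ± 0.27 (adjusted p = 0.00381). Summed over the 10 markers, of which up to 5 were at 0 in a library, tuft cell levels were 40.2 to 55.1 CPM in the 6 female controls and 85.7 to 264 CPM in the 6 females on succinate, which did not overlap. The lowest female on succinate, at 85.7 CPM, was wild type replicate 3, the mouse in which 7 of the 9 peptidases lay among the wild type controls, with *Anpep* and *Mep1b* below them. Wild type males had 45.71 to 51.46 CPM as controls and 65.65 to 74.18 CPM on succinate, without overlap. *Ptk6-/-* males had 48.03 to 54.39 CPM as controls and 46.63 to 65.64 CPM on succinate, which overlapped. The members summed to 13590 to 20510 CPM in female controls and 2477 to 15760 CPM in females on succinate, and to 12780 to 19390 and 7739 to 18540 CPM in males. Smooth muscle markers, none at 0, summed to 2150 to 4813 CPM in female controls and 3828 to 7939 CPM in females on succinate, with *Actg2* called in the average. Paneth cell markers summed to 4426 to 13780 and 6815 to 25460 CPM, with *Ang4* called higher in the average. Goblet cell markers summed to 9741 to 26070 and 10790 to 22040 CPM (medians 15490 and 12945 CPM, and in males 12650 and 15155 CPM). Among them *Spink4* was called higher in the average (2.01 ± 0.44). Stroma markers summed to 419 to 658 and 569 to 988 CPM. T cell markers summed to 100.3 to 289 and 52.8 to 116 CPM. With genotypes pooled, the smooth muscle, Paneth, goblet, stroma and T cell ranges overlapped. Taken by genotype, stroma sums did not overlap in wild type females (419.3 to 480.4 and 568.5 to 987.6 CPM). Nor did they in *Ptk6-/-* females (494 to 657.8 and 660.5 to 934.2 CPM). T cell sums did not overlap in wild type females (143.3 to 289.1 and 57.09 to 116.4 CPM) but did in *Ptk6-/-* females. The smooth muscle, Paneth and goblet sums overlapped in both female genotypes. B cell markers summed to 14.13 to 66.75 CPM in female controls and 13.85 to 80.15 CPM on succinate, which overlapped with genotypes pooled. B cell sums were 14.13 to 25.54 and 25.92 to 80.15 CPM in wild type females, without overlap, and overlapped in *Ptk6-/-* females. In wild type males they summed to 19.87 to 76.77 CPM in controls and 92.92 to 128.6 CPM on succinate, without overlap. In *Ptk6-/-* males the B cell sums were 15.17 to 55.1 and 15.82 to 38.01 CPM, which overlapped. Distal intestine markers summed to 1154 to 3898 CPM in female controls and 386 to 2128 CPM on succinate, and proximal markers to 1207 to 2088 and 739 to 1781 CPM. By genotype, distal sums were 2499 to 3898 and 498.6 to 2128 CPM in wild type females, without overlap. In *Ptk6-/-* females distal sums were 1154 to 3399 and 385.5 to 872.3 CPM, again without overlap. Proximal sums overlapped in both female genotypes. The part of these markers in the values of the peptidases was not tested.

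**Figure D5:**
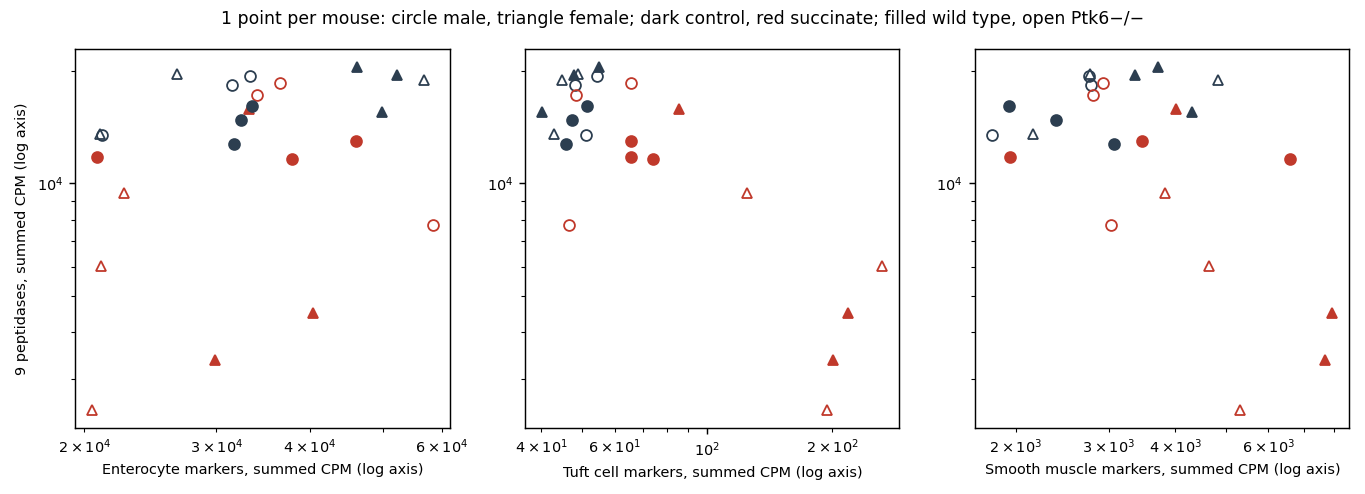
Summed CPM of the 9 peptidases (vertical, log axis) against summed CPM of enterocyte, tuft cell and smooth muscle markers (horizontal, log axes), with 1 point per mouse. The 5 mice with the highest tuft cell sums, 125 to 264 CPM, are females on succinate whose peptidases sum to 2477 to 9440 CPM, and the male Ptk6-/- mouse at 7739 CPM has a tuft cell sum of 46.6 CPM.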

How the data were processed

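RNA of the distal jejunum of 24 mice was sequenced as stranded poly(A) libraries. The deposited counts are raw whole-number read counts per gene made by the authors, and the counting program and its use of strand are not given in the sources used here. The deposited FPKM values were made by the authors, who aligned reads with HISAT2 and assembled them with StringTie and ballgown. The submitters' processing notes name GRCm39, FastQC and StringTie. GEO's titles gave groups and name each sample a biological replicate, 1 mouse each.

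Each comparison of 3 mice against 3 was fitted to the counts of its own groups, and averages and interactions to all groups concerned, with edgeR 4.0.16 (quasi-likelihood test, TMM, a minimum of 10 counts in 3 or more libraries per gene, Benjamini-Hochberg adjustment over all genes tested). A gene was called at an adjusted p under 0.05 and a fold change of at least 2. Alternatives used DESeq2 1.42.0, limma 3.58.1 with voom or on log2(FPKM + 1) and log2(FPKM + 0.1), other filters and scalings, a gene length offset, and fits without each library. The edgeR test, with and without the gene length offset, was run first on simulated counts. These had a single fixed dispersion for all genes and no libraries that stand apart. They therefore do not show how the test performs at the spread of these mice. Correlations used 100000 permutations (scipy 1.17.1). The members, the lists and the named genes (members, called genes of a list, 8 set genes, 1 of which is not reported here, and the 5 most similar genes) were chosen with earlier results of these data known. The succinate by sex interaction and the averages within each sex were added after values were seen. No single gene in 3 mice against 3 can reach an exact permutation p below 0.1.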

Additional observations from a re-analysis of the deposited data

How the results depend on the processing

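Over 17 comparisons, edgeR called 0 members, and most alternatives also called 0. Voom with sample quality weights called 1 between genotypes in succinate males, 1 for succinate in wild type males, 2 for succinate averaged over 24 mice and 7 within 12 females. DESeq2 called 4 for succinate in Ptk6-/- females, 2 in the average over 24 mice and 5 within 12 females. Leaving out 1 library gave 0 to 1 members in wild type males (1 without succinate replicate 1), 0 to 8 in wild type females, 0 to 1 in the average over 24 mice and 0 to 7 within 12 females. The highest counts in the last 3 came without female wild type succinate replicate 3. The cause was not tested.

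Of 3276 member values under alternatives, 212 (6.47%) changed sign, with 0 of 315 for the average succinate effect, 0 of 153 for succinate in each genotype of females, and 42 of 198 for genotype by succinate in females. The number of genes called moved more. The average succinate effect called 114 genes by edgeR, 515 by voom, 283 by DESeq2 and 25 on log2(FPKM + 0.1). Genotype in control males called 142, 577, 353 and, with all 24 libraries in 1 fit, 1. Succinate in Ptk6-/- females called 17 genes by edgeR, 200 by voom and 433 by DESeq2, and within 12 females the counts were 176, 561 and 589. In wild type females edgeR called 0 and DESeq2 258. FPKM values are not corrected for composition, and on log2(FPKM + 1) the median of all genes shifted by -0.35 for succinate in Ptk6-/- males, where the members' median relative to all genes was -0.61, and by 0.23 in wild type males, where it was -0.22.

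Replicate numbers did not pair the mice: correlations of deviations between same-numbered mice ran from -0.32 to 0.21. The replicate block called 0 members in every comparison, and it called 0 genes for succinate in Ptk6-/- females, 92 in the average succinate effect, 5 between genotypes in control males and 88 within 12 females.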

Other observations

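Within 12 females, edgeR called *Slc40a1*, the iron exporter of enterocytes, lower on succinate (log2 fold change -1.13 ± 0.20 (SE), adjusted p = 0.0166), whereas *Pnliprp2* (4.17 ± 0.62, adjusted p = 0.00586) and *Ang4* (2.92 ± 0.50, adjusted p = 0.0158) of the Paneth cell list were higher. The lung genes *Scgb1a1* and *Sftpa1* were called in the average sex effect by edgeR, at log2 fold changes of 7.57 and 5.16 (adjusted p = 0.0067 for both), but most wild type females were at the level of the males. The 6 lung markers summed to 7.7 to 19.5 CPM in the 6 Ptk6-/- females and 17.6 CPM in female wild type succinate replicate 3, against 2.54 to 4.15 CPM in the other 5 wild type females and 0 to 3.85 CPM in the 12 males. *Scgb1a1* was also called between genotypes in control females (11.45, adjusted p = 0.0211).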
